A study of Mus musculus with 6 samples.

Results

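The genes described here are 36 genes of integrins and focal adhesions in mouse embryonic fibroblasts, cells grown out of mouse embryos, out of 26532 genes in the deposited table. They were taken by name and comprise 17 integrin subunits, 2 discoidin domain receptors, 16 adhesion proteins and Hic1, a gene for a transcriptional repressor. All 36 were matched by Entrez number, and 32 had enough counts to be tested among 13764 genes in all. RNA was sequenced from 6 libraries. In 3 of them the cells had received a recombinant adenovirus carrying green fluorescent protein (GFP, genotype label WT). In the other 3 the adenovirus carried ORAI2, a pore subunit of the plasma membrane channels that let calcium in when the internal stores are empty (genotype label ORAI2 Overexpression). Every library has the cell type label mesenchymal stem cells and the treatment label osteogenic differentiation. The sources used here do not give the promoter driving ORAI2, the time in culture or whether BMP9, named in the series title, was added. They also leave unsaid whether the 3 libraries of a group are separate cultures. The p-values therefore cover the spread among these libraries alone, which may be technical.

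Integrins are receptors built from an alpha and a beta chain that hold cells to the extracellular matrix. The alpha chain largely sets the ligand. Some bind collagens, others bind proteins with the tripeptide RGD such as fibronectin and vitronectin, and others bind laminins. Inside the cell, talins and kindlins bind the beta tail and switch the receptor on, vinculin and tensins tie it to actin, and a complex of ILK, PINCH and parvin sits beside them. Focal adhesion kinase and SRC phosphorylate scaffolds such as p130Cas and paxillin. In fibroblasts and bone-forming cells these contacts anchor the cell and sense the stiffness of the matrix.

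Total counts lay between 18526884 and 18844436 per library, and the scaling factors for composition were between 0.99 and 1.01. Orai2 was at 52.8, 48.9 and 48.9 CPM (counts per 1000000 counts of the library total) with GFP and at 3658, 2836 and 2436 CPM with ORAI2, as the labels say. Of the fibroblast markers, Vim and Prrx1 averaged 485 and 342 CPM with GFP, whereas Thy1 and Fap were at 0.11 and 0.36 CPM. All 8 fibroblast markers that could be tested were lower with ORAI2, where 22.1% of all tested genes were lower. The sum of the 10 markers was between 2359 and 2469 CPM in the GFP libraries and between 1293 and 1369 CPM in the ORAI2 libraries. Col1a1 held the largest part of the sum and averaged 1257 CPM with GFP and 486 CPM with ORAI2. Vim and Prrx1 fell less, to 383 and 260 CPM with ORAI2 (1.27-fold and 1.32-fold). In bulk RNA, fewer cells of a type and less RNA per cell cannot be told apart, and the part of this difference in the results on adhesion genes was not tested.

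Of the 32 tested genes of the set, Hic1 included, 22 (68.8%) passed the test, where 42.9% of all tested genes passed. The members were chosen with earlier results of these data known, and all tested genes were not matched to them for expression level. The shares set side by side here are therefore a description. The test was edgeR's quasi-likelihood test at a Benjamini-Hochberg adjusted p under 0.05 over all tested genes, and every adjusted p given here comes from it. The 22 comprised 7 genes that rose with ORAI2 and 15 that fell. Over all tested genes, 20.8% rose and 22.1% fell. Most changes were small. A call with a change of at least 1.2-fold was reached by 14 of the 32 genes (43.8%, against 25.5% of all tested genes, of which 10.1% higher and 15.4% lower), and one of at least 1.5-fold by 7 (21.9%, against 8.89%). The median log2 fold change of the 32 was -0.17, beside -0.002 for all tested genes. In 24 of the 32 genes (75.0%, against 52.9% of all tested genes) the 3 libraries of one group all lay above the 3 of the other. The 17 integrin subunits included 2 genes that rose and 5 that fell among 13 tested, and the 16 adhesion proteins 4 that rose and 8 that fell among 16 tested.

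**Figure D1:**
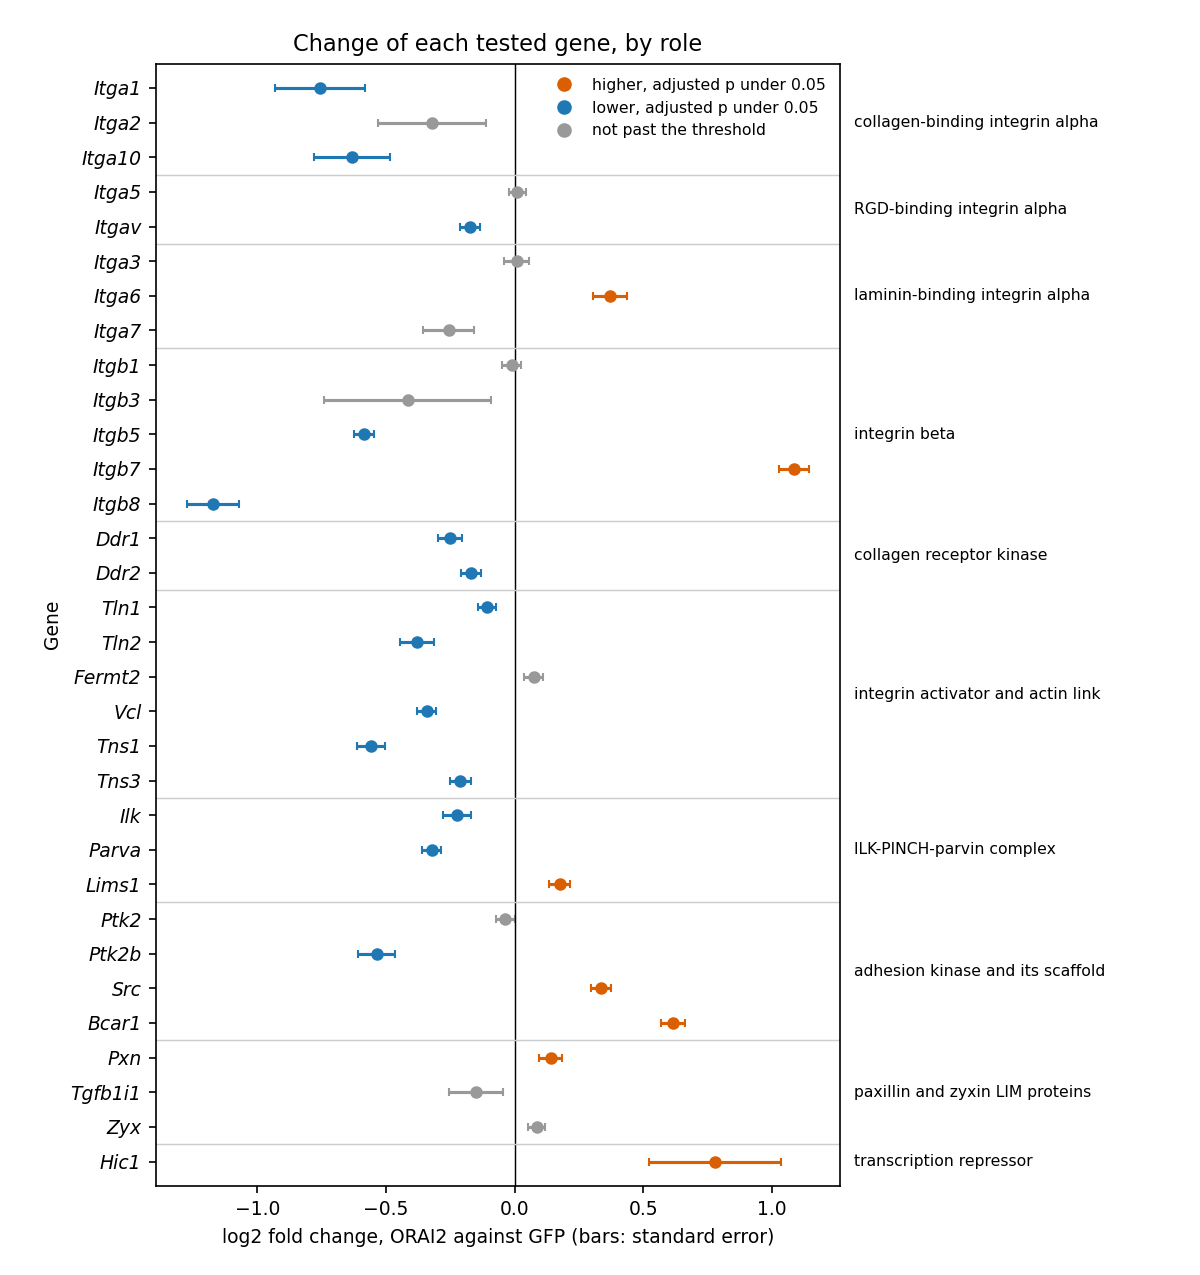
Log2 fold change of ORAI2 against GFP (horizontal axis) for the 32 tested genes (vertical axis), grouped by role, with bars for the standard error and 3 libraries per group. Itgb7 lies farthest to the right at 1.09 and Itgb8 farthest to the left at -1.17, and the collagen-binding alpha chains all lie left of 0.

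The beta chains diverged most. Itgb7 rose 2.12-fold, Itgb8 and Itgb5 fell, and Itgb1, by far the most abundant, did not pass the test. Because these 3 beta chains are the ones that passed, the 250 bases before each RefSeq gene start are shown, in mouse build GRCm38.p6, 5′ to 3′ along the gene, with capitals for GC boxes (GGGCGG on either strand).
Itgb7, chr15:102231936-102232185, minus strand: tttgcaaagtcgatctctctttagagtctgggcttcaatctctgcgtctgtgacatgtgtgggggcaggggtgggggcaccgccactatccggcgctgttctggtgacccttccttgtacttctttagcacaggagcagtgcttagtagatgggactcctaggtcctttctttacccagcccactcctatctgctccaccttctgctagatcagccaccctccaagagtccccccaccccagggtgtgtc
Itgb8, chr12:119238277-119238526, minus strand: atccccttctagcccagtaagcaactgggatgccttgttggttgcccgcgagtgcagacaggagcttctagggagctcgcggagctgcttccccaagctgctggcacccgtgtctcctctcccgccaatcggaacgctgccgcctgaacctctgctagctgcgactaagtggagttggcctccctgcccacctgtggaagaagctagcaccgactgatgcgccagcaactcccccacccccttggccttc
Itgb5, chr16:33829415-33829664, plus strand: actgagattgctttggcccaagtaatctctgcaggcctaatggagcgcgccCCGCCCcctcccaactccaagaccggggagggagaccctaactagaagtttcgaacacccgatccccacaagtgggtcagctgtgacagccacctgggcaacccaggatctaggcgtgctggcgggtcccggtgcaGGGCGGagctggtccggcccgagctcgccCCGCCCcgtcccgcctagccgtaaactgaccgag
The Itgb5 window held 3 GC boxes. The Itgb7 and Itgb8 windows held none. Over all 32851 windows of this length, 32.7% held a GC box. Nor did the Itgb7 and Itgb8 windows match, on either strand, the AP-1 motif TGANTCA (in 6.75% of all windows), the TEAD motif ACATTCC (3.25%), the ETS motif CCGGAAG (6.91%), the TATA motif TATAAA (12.4%) or the CArG box bound by SRF (1.47%). The RefSeq table had windows for 27 of the 36 genes, and 21 of their 36 windows (58.3%) held a GC box. Some genes had more than 1 window. GC content ran from 34.8% to 82.8% in these windows, beside a median of 52.4% over all windows, and the shares were not matched for it. For some of these windows, the bases after the start were in no GENCODE transcript of that gene. No window of the 27 genes matched the TEAD motif, and AP-1 matches were in those of Zyx and Ddr1. A match describes letters only.

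Itgb7 (Entrez 16421) encodes a beta chain best known from lymphocytes. It was at 36.6, 40.2 and 34.9 CPM in the GFP libraries and at 76.8, 83.3 and 77.4 CPM in the ORAI2 libraries. Every ORAI2 library was far above every GFP library. The gene rose 2.12-fold (edgeR log2 fold change 1.09, SE 0.06, adjusted p = 3.23e-08). The alpha chains known to pair with it were scarce. Itga4 had 3, 3 and 1 counts with GFP and 1, 1 and 2 counts with ORAI2, and Itgae averaged 0.29 and 0.25 CPM, both under the filter. The leukocyte beta chain Itgb2 was at 1.96 and 2.11 CPM (adjusted p = 0.695), and Ptprc, the pan-leukocyte marker CD45, at 0.05 CPM in both groups.

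Itgb8 (Entrez 320910) encodes a partner of the alpha v chain known for activating latent TGF-beta. Its levels were 31.1, 28.2 and 33.7 CPM with GFP and 12.1, 13.2 and 16.1 CPM with ORAI2, without overlap. It fell 2.25-fold (edgeR log2 fold change -1.17, SE 0.10, adjusted p = 1.68e-06). Itgb5 (Entrez 16419), another partner of alpha v and part of a vitronectin receptor, was at 202.5, 196.2 and 190.7 CPM with GFP and at 128.3, 131.8 and 133.4 CPM with ORAI2. The libraries within a group were close together, and the groups were well apart. The fall was 1.502-fold (edgeR log2 fold change -0.59, SE 0.04, adjusted p = 1.83e-07).

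Itgb1, the chain shared by most matrix-binding integrins, was at 951, 926 and 904 CPM with GFP and at 921, 911 and 932 CPM with ORAI2. The groups overlapped (edgeR log2 fold change -0.01, SE 0.04, adjusted p = 0.818). Itgb3, the other alpha v partner of vitronectin receptors, had only 17, 15 and 11 counts with GFP and 13, 9 and 10 with ORAI2 (log2 fold change -0.42, SE 0.33, adjusted p = 0.330).

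**Figure D2:**
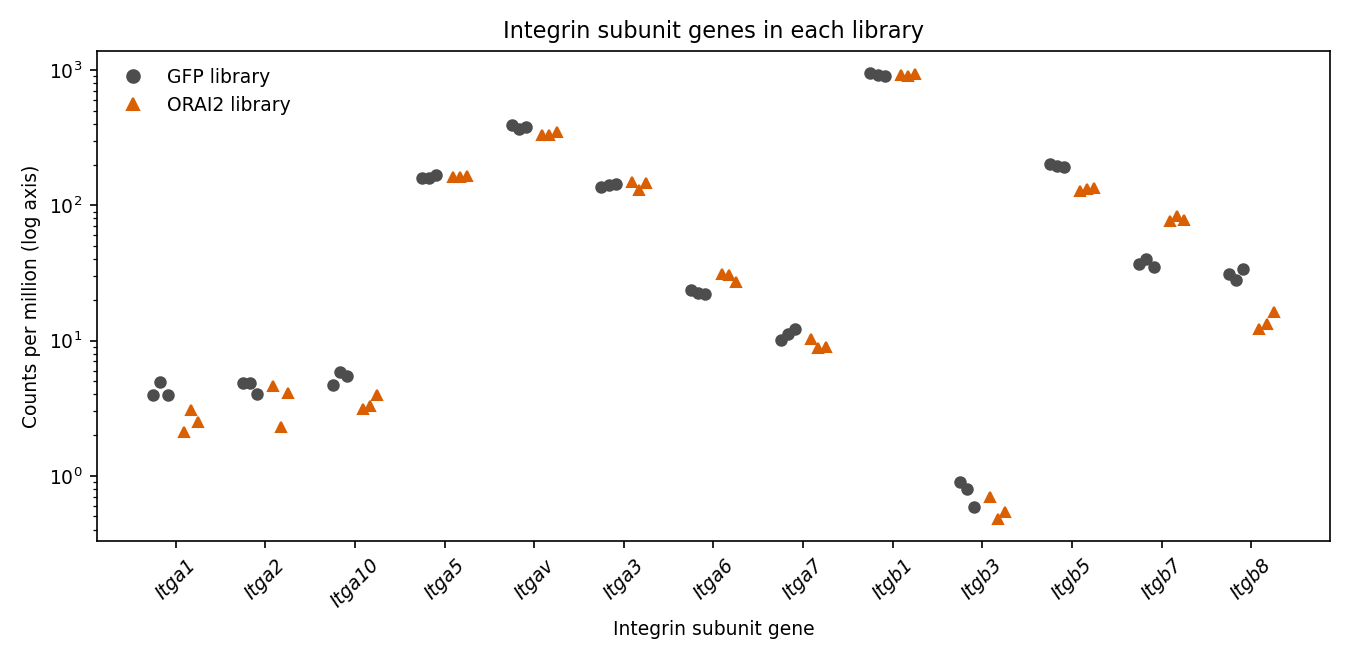
CPM on a log axis for the 13 tested integrin subunits (horizontal axis) in each GFP library (circles) and ORAI2 library (triangles). Itgb1 lies between 904 and 951 in all 6 libraries, while Itgb7 lies above, and Itgb5 and Itgb8 below, their GFP levels in all 3 ORAI2 libraries.

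Per length, that is in CPM per kilobase of the longest coding transcript, Itgb1 made up 75.8% ± 0.16 of the 5 beta chains with GFP and 77.2% ± 0.56 with ORAI2 (SD, n = 3 each). Itgb5 went from 18.7% ± 0.09 to 12.8% ± 0.17 of them, Itgb7 from 4.33% ± 0.30 to 9.43% ± 0.46 and Itgb8 from 1.15% ± 0.12 to 0.52% ± 0.08. Itgb5 was the next most abundant beta chain in both groups, and Itgb7 came nearer to it. The per-length ratio of Itgb7 to Itgb5 was between 0.22 and 0.25 in the GFP libraries and between 0.71 and 0.77 in the ORAI2 libraries. The sum over the 5 beta chains was 321 ± 8.20 and 313 ± 2.74 CPM per kilobase. These shares are a description, with no test.

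**Figure D3:**
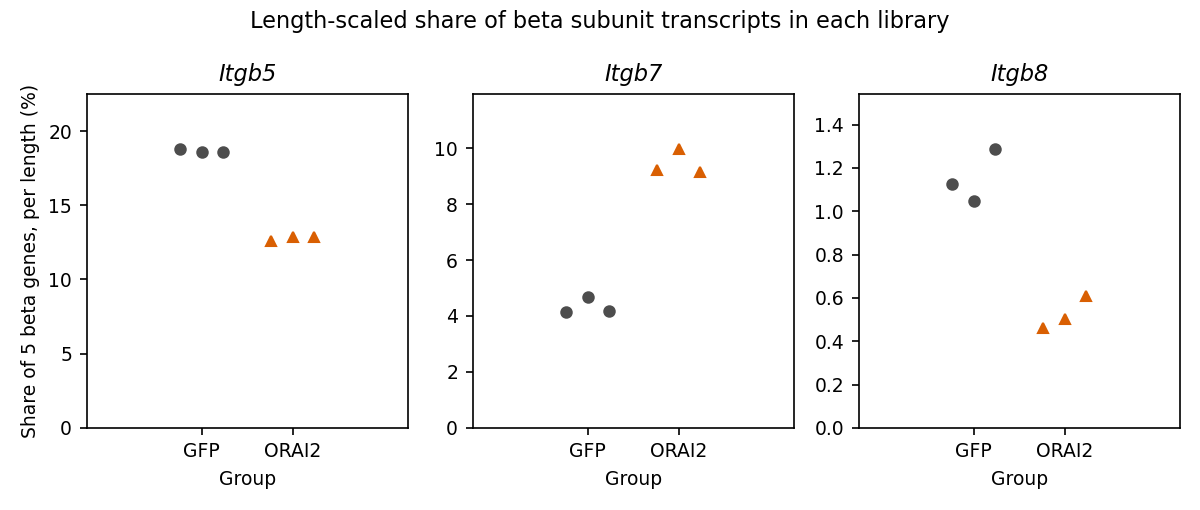
Share of the summed per-length level of 5 beta chains (vertical axes, percent, from 0) taken by Itgb5, Itgb7 and Itgb8 in each library of the GFP group (circles) and the ORAI2 group (triangles). The share of Itgb5 fell from near 18.7% to near 12.8%, while that of Itgb7 went from near 4.33% to near 9.43%.

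The collagen-binding alpha chains were all scarce, and those that passed the test fell. Itga1, a receptor for collagen IV and fibrillar collagens, was at 3.98, 4.92 and 3.98 CPM with GFP and at 2.10, 3.05 and 2.48 CPM with ORAI2. All ORAI2 libraries were lower, by 1.69-fold (edgeR log2 fold change -0.76, SE 0.17, adjusted p = 0.00378). Itga10, best known from cartilage, was at 4.67, 5.83 and 5.49 CPM with GFP and at 3.13, 3.26 and 3.94 CPM with ORAI2. Its groups did not overlap either, and it fell 1.55-fold (edgeR log2 fold change -0.63, SE 0.15, adjusted p = 0.00396). Per the GENCODE annotation, 34.5% of the exonic bases of Itga10 are shared with the overlapping gene model Gm42957 on the same strand. Reads that lie within the shared bases could come from either gene model, but no gene named Gm42957 was matched in the deposited table. The effect of the overlap on the Itga10 counts was not tested.

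Itga2 had a log2 fold change of -0.32 (SE 0.21, adjusted p = 0.243), with ORAI2 replicate 2 lowest at 2.30 CPM and the other 5 libraries between 4.04 and 4.83 CPM. Itga11, a receptor of fibrillar collagen in mesenchymal cells, had 15, 5 and 17 counts with GFP and 1, 5 and 5 counts with ORAI2, under the filter. The groups touched at 5 counts. Per length the 4 chains summed to 2.22 ± 0.11 CPM per kilobase with GFP and 1.47 ± 0.17 with ORAI2 (SD, n = 3 each). The list of 10 collagen chain genes, the ligands of these receptors, was drawn up with earlier results of these data known. All 10 were lower, against 22.1% of all tested genes. The median log2 fold change of the 10 was -0.87, beside -0.002 for all tested genes. The log2 fold changes of the 10 ran from -3.46 for Col3a1 to -0.67 for Col4a1.

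Both discoidin domain receptors, collagen-binding tyrosine kinases unrelated to integrins, also fell slightly. Ddr2, the mesenchymal form, was at 676, 668 and 644 CPM with GFP and at 609, 569 and 590 CPM with ORAI2 (edgeR log2 fold change -0.17, SE 0.04, adjusted p = 0.00359). Ddr1, the form of epithelia, averaged 85.0 ± 1.37 and 71.6 ± 4.24 CPM (edgeR log2 fold change -0.25, SE 0.05, adjusted p = 8.05e-04). Neither gene had overlapping groups. Per length, Ddr2 was between 3.43 and 3.98 times as abundant as Ddr1 in every library.

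Among the RGD-binding alpha chains the change was small. Itgav, the alpha chain of the vitronectin receptors and partner of Itgb5 and Itgb8, was at 393, 370 and 377 CPM with GFP and at 332.7, 330.9 and 348.5 CPM with ORAI2. The groups did not overlap, and the fall was 1.13-fold (edgeR log2 fold change -0.17, SE 0.04, adjusted p = 0.00332). Itga5, the alpha chain of the main fibronectin receptor, averaged 162 ± 4.27 and 163 ± 2.09 CPM (log2 fold change 0.01, SE 0.03, adjusted p = 0.834). Itga8, another RGD-binding chain, had 1 count in 1 ORAI2 library and 0 counts in all 3 GFP libraries, which allows a level of up to 0.0535 CPM over the GFP group by counting error. Among all tested genes, 22.1% fell and 20.8% rose. Of 10 tested genes for ligands of the RGD-binding, alpha 4 and alpha 9 integrins, 6 fell, 2 rose and 2 did not pass, with a median log2 fold change of -0.23. Among those with at least 5 CPM, Thbs1, Tnc, Fbn1 and Vcam1 had the largest falls (log2 fold changes -1.45, -0.75, -0.75 and -0.53), and the 2 that rose were Ccn2 and Ccn1 (0.24 and 0.15).

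Of the 3 laminin-binding alpha chains, 1 rose and the others did not pass. Itga6, which forms laminin receptors with beta 1 or beta 4, was at 23.6, 22.5 and 22.2 CPM with GFP and at 31.0, 30.3 and 27.2 CPM with ORAI2. Every ORAI2 library was higher, and the rise was 1.29-fold (edgeR log2 fold change 0.37, SE 0.07, adjusted p = 7.42e-04). Itga3 averaged 140 ± 3.74 and 141 ± 10.6 CPM (adjusted p = 0.927). Itga7, the laminin receptor chain of muscle, averaged 11.1 ± 1.04 and 9.32 ± 0.80 CPM and just missed the threshold (log2 fold change -0.26, SE 0.10, adjusted p = 0.0542). Upper-quartile scaling, or leaving out replicate 1 of the GFP or of the ORAI2 group, made it pass as lower (adjusted p = 0.0410, 0.0367 and 0.0423). Of 8 tested laminin chain genes, 5 fell, 2 rose and 1 did not pass, where 22.1% of all tested genes fell and 20.8% rose. Lamb1 rose 1.76-fold (208 ± 7.29 CPM with GFP, 366 ± 11.5 with ORAI2, edgeR adjusted p = 1.38e-08), while Lamb3 fell 1.57-fold, Lamb2 1.49-fold and Lama5 1.36-fold. The other chain that rose was Lamc3, at under 1 CPM in both groups, named after its value was seen.

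Per length, Itgav held 41.4% ± 1.25, Itga5 28.4% ± 0.59 and Itga3 22.2% ± 0.64 of the 12 alpha chains with GFP. With ORAI2 the shares were 38.3% ± 0.76, 29.9% ± 0.62 and 23.3% ± 1.19 (SD, n = 3 each). The order of these 3 was the same in all 6 libraries. Itga6 went from 4.07% ± 0.15 to 5.49% ± 0.47. Each of the other 8 held under 3% in every library. The alpha 4 and alpha 9 chains, receptors for VCAM-1, fibronectin and tenascin, were nearly undetected, and Itga9 had at most 3 counts in a library. Of 9 integrin subunits outside the set, 3 could be tested and 1 was called. This was Itga2b, the platelet fibrinogen receptor chain, which fell 3.402-fold (5.61 ± 0.85 CPM with GFP, 1.65 ± 0.36 with ORAI2, edgeR adjusted p = 1.27e-05) and was singled out after its value was seen.

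Of the 6 genes for proteins that activate integrins or link them to actin, 5 fell and none rose. The shares of all tested genes were 22.1% that fell and 20.8% that rose. Vcl and Fermt2 are shown first by the 250 bases before their gene starts (GRCm38.p6, 5′ to 3′ along the gene), because they were the only 2 of the 27 genes with a window that held a CArG box, the element bound by SRF, marked in capitals.
Vcl, chr14:20929148-20929397, plus strand: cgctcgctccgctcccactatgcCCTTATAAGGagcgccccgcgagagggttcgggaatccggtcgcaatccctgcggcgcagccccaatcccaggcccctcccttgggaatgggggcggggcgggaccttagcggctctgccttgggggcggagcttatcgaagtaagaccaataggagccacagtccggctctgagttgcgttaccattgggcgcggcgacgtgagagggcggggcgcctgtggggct
Fermt2, chr14:45530066-45530315, minus strand: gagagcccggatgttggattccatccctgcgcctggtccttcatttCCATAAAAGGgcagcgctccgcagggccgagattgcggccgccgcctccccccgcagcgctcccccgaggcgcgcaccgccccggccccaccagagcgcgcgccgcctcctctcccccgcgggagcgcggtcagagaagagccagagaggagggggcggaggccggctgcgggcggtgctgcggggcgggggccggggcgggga
The Vcl match ended 217 bases and the Fermt2 match 194 bases before the gene start, and neither overlapped a match to the other motifs. Over all windows 1.47% held a CArG box. The 2 genes differed in the libraries: Vcl fell and Fermt2 did not pass.

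Vcl encodes vinculin, which couples talin to actin. It was at 195, 191 and 188 CPM with GFP and at 148, 154 and 152 CPM with ORAI2. The groups were well separated, with a 1.27-fold fall (edgeR log2 fold change -0.34, SE 0.04, adjusted p = 9.25e-06). Ap3m1 on the opposite strand overlaps 39.7% of the exonic bases of Vcl and averaged 93.3 and 96.6 CPM (adjusted p = 0.366). The sources used here do not say whether the counting used strand, so the level of Vcl may include reads of Ap3m1. Fermt2, kindlin-2, was at 168, 166 and 171 CPM with GFP and at 184, 172 and 177 CPM with ORAI2. Its ORAI2 libraries all lay above the GFP libraries, but the difference was small (edgeR log2 fold change 0.07, SE 0.04, adjusted p = 0.130).

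Tns1 and Tns3, tensins that bind beta tails and actin in mature adhesions, both fell. Tns1 was at 36.9, 35.1 and 35.5 CPM with GFP and at 24.3, 24.8 and 24.0 CPM with ORAI2, a 1.47-fold fall without overlap (edgeR log2 fold change -0.56, SE 0.06, adjusted p = 5.43e-06). Tns3, per length the more abundant, averaged 258 ± 10.2 and 223 ± 6.17 CPM (edgeR log2 fold change -0.21, SE 0.04, adjusted p = 0.00111). Outside the set, Tns2 was 1.12-fold lower (adjusted p = 0.0103), and the scarce Tns4 did not pass (adjusted p = 0.149). Of the talins, Tln2 was at 30.8, 30.9 and 32.3 CPM with GFP and at 25.3, 25.3 and 21.9 CPM with ORAI2. It fell 1.30-fold (edgeR log2 fold change -0.38, SE 0.07, adjusted p = 5.33e-04). Tln1, per length between 19.8 and 26.6 times as abundant as Tln2, averaged 430 ± 12.1 and 400 ± 7.73 CPM (edgeR log2 fold change -0.11, SE 0.04, adjusted p = 0.0245). The Tln1 call was lost when GFP replicate 3 was left out (adjusted p = 0.0707), and likewise for ORAI2 replicates 2 and 3 (0.0936 and 0.0535).

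In the complex of ILK, PINCH and parvin, the members did not move together. Parva, alpha-parvin, was at 143, 137 and 143 CPM with GFP and at 115, 114 and 111 CPM with ORAI2. It fell 1.25-fold without overlap (edgeR log2 fold change -0.32, SE 0.04, adjusted p = 1.85e-05). Ilk, the pseudokinase at the centre of the complex, averaged 65.7 ± 4.08 and 56.4 ± 2.44 CPM (edgeR log2 fold change -0.22, SE 0.06, adjusted p = 0.00575). Its value is uncertain, because Taf10 on the opposite strand overlaps 81.7% of its exonic bases and Rrp8, also opposite, overlaps 319 of them. Taf10 did not pass and Rrp8 rose, with log2 fold changes of -0.06 and 0.43. Lims1, PINCH-1, was at 227, 227 and 224 CPM with GFP and at 247, 271 and 251 CPM with ORAI2. All ORAI2 libraries were above the GFP libraries, and the rise was 1.13-fold (edgeR log2 fold change 0.17, SE 0.04, adjusted p = 0.00365).

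Parvb and Lims2, relatives of Parva and Lims1 outside the set, rose. Parvb, beta-parvin, went from 44.2, 47.7 and 41.2 CPM to 78.5, 75.6 and 69.5 CPM (a 1.68-fold rise, edgeR adjusted p = 1.14e-06). The per-length ratio of Parva to Parvb was between 2.44 and 2.95 in the GFP libraries and between 1.24 and 1.35 in the ORAI2 libraries, so Parva was the more abundant form in all 6. Lims2, PINCH-2, was scarce and rose 2.40-fold (2.74 ± 0.33 CPM with GFP, 6.61 ± 0.47 with ORAI2, edgeR adjusted p = 1.45e-05). It was named after its value was seen, and so were the ratios between related genes.

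Focal adhesion kinase itself hardly differed, while its relative, its partner kinase and its scaffold did. Ptk2, which encodes focal adhesion kinase, was at 177, 165 and 170 CPM with GFP and at 166, 170 and 165 CPM with ORAI2, with overlapping groups (edgeR log2 fold change -0.04, SE 0.04, adjusted p = 0.460). Ptk2b encodes PYK2, the relative that responds to calcium. It was at 27.9, 29.5 and 25.7 CPM with GFP and at 19.6, 19.6 and 18.3 CPM with ORAI2. Every ORAI2 library was lower, by 1.45-fold (edgeR log2 fold change -0.54, SE 0.07, adjusted p = 6.27e-05). The per-length ratio of Ptk2 to Ptk2b was between 4.83 and 5.71 with GFP and between 7.32 and 7.77 with ORAI2.

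Src, the kinase recruited by focal adhesion kinase, was at 106, 110 and 103 CPM with GFP and at 138, 133 and 133 CPM with ORAI2. It rose 1.26-fold without overlap (edgeR log2 fold change 0.34, SE 0.04, adjusted p = 2.04e-05). Bcar1 (Entrez 12927) encodes p130Cas, a scaffold that SRC phosphorylates when adhesions are stretched. It was at 101, 109 and 110 CPM with GFP and at 173, 156 and 160 CPM with ORAI2. The lowest ORAI2 library was well above the highest GFP library, and the rise was 1.53-fold (edgeR log2 fold change 0.62, SE 0.05, adjusted p = 5.01e-07). Nedd9, another scaffold of the Cas family, went the other way, from 18.84, 18.98 and 16.74 CPM to 9.70, 9.36 and 9.93 CPM (1.89-fold lower, edgeR adjusted p = 3.49e-06). Per length, Bcar1 was between 8.28 and 10.2 times as abundant as Nedd9 with GFP and between 25.0 and 27.7 times with ORAI2.

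**Figure D4:**
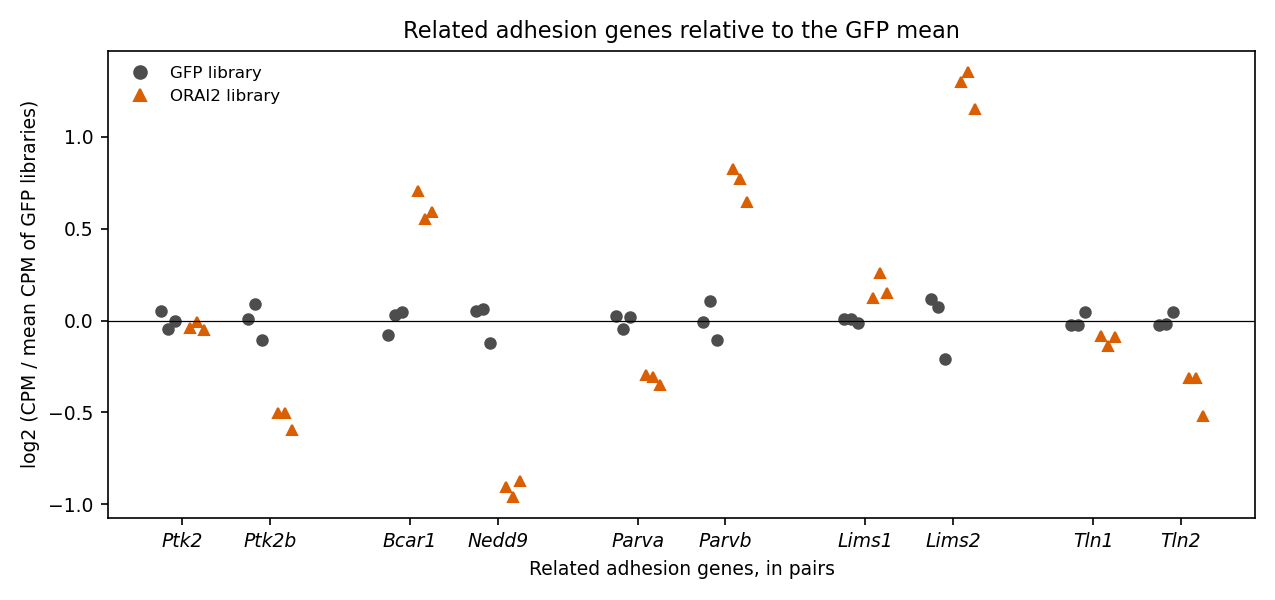
Level in each library relative to the mean of the GFP libraries (vertical axis, log2) for 5 pairs of related adhesion genes (horizontal axis), with GFP libraries as circles and ORAI2 libraries as triangles. Bcar1 and Nedd9, and Parvb and Parva, lie on opposite sides of 0 with ORAI2, while Lims1 and Lims2 both lie above it and Ptk2 stays near it.

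The LIM-domain adaptors differed little. Pxn, paxillin, was at 80.9, 85.1 and 79.6 CPM with GFP and at 94.4, 88.5 and 88.4 CPM with ORAI2, a 1.10-fold rise (edgeR log2 fold change 0.14, SE 0.04, adjusted p = 0.0203). The Pxn call did not hold when GFP replicate 1 or 3 was left out (adjusted p = 0.0517 and 0.0641) or ORAI2 replicate 1 (0.0812). Zyx, zyxin, which follows mechanical load at adhesions, was at 161.4, 162.7 and 162.5 CPM with GFP and at 172.8, 172.1 and 172.5 CPM with ORAI2. Its groups did not overlap and it just missed the threshold (edgeR log2 fold change 0.08, SE 0.03, adjusted p = 0.0505). It passed as higher with 4 alternatives (adjusted p between 0.0392 and 0.0455). Tgfb1i1, which encodes HIC-5, a paxillin relative, averaged 9.53 ± 0.55 and 8.60 ± 1.04 CPM (adjusted p = 0.271). Hic1 is a different gene, for a transcriptional repressor. It had only 13, 14 and 15 counts with GFP and 27, 24 and 21 counts with ORAI2. The ORAI2 counts were all higher (edgeR log2 fold change 0.78, SE 0.26, adjusted p = 0.0276), but the call did not hold with DESeq2 (adjusted p = 0.143) or with no low-count filter (0.0526). It was also lost when replicate 1 or 2 of either group was left out (adjusted p between 0.0607 and 0.0912).

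Further adhesion proteins, from a list of 50 genes of which 48 could be tested, divided more evenly. Of the 48, 12 rose, 15 fell and 21 did not pass, so 56.2% were called, against 42.9% of all tested genes, and the median log2 fold change was -0.005. Besides Parvb, the genes of at least 5 CPM with the largest rises were Cav1, caveolin-1 (1.57-fold, from 67.0 ± 3.04 to 106 ± 7.89 CPM), Tes, testin (1.30-fold), and Git1, a paxillin-binding protein (1.19-fold). Besides Nedd9, the genes with the largest falls were Palld, palladin of actin bundles (1.41-fold), Kank1, which rims adhesions (1.37-fold), and Apbb1ip, the talin recruiter RIAM (1.28-fold). Among these 6, the largest adjusted p was 0.00234, for Tes (edgeR). The actin cross-linker gene Flna averaged 1172 and 1138 CPM (adjusted p = 0.400).

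Macrophage and leukocyte markers summed to between 54.1 and 57.4 CPM with GFP and between 28.6 and 38.0 CPM with ORAI2 over 9 genes. Of the 4 tested, Cd14 and Mpeg1 fell and 2 did not pass, while Ptprc, Csf1r, Itgam and Aif1 each averaged at most 0.12 CPM in a group. For this and the next lists, 22.1% of all tested genes fell and 20.8% rose. Endothelial markers summed to between 6.42 and 8.88 CPM with GFP and between 16.3 and 17.5 CPM with ORAI2 over 7 genes, of which Emcn had no count. Kdr and Vwf, the 2 tested, rose and held most of the sum (means 3.10 to 6.24 and 3.69 to 10.2 CPM). Pecam1, Cdh5, Tek and Cldn5 were under the filter, each averaging at most 0.29 CPM in a group. Epithelial markers summed to between 2.80 and 3.74 CPM with GFP and between 4.21 and 5.12 CPM with ORAI2 over 7 genes, with no count for Epcam. Of the 2 tested, Grhl2 rose 4.68-fold, from 0.50 ± 0.19 to 2.37 ± 0.65 CPM (edgeR adjusted p = 1.31e-04), and Krt18 did not pass. Skeletal muscle markers summed to at most 0.11 CPM in any library over 3 genes, with no count for Ckm. Myod1 and Myog, also on that list, were not matched in the deposited table. Smooth muscle markers summed to between 46.5 and 49.9 CPM with GFP and between 81.6 and 87.7 CPM with ORAI2, most of it Smtn. Of the 3 tested, 2 rose, while Acta2, Myh11 and Cnn1 were under the filter, each averaging at most 0.38 CPM in a group. Neural and glial markers, mostly Nes, summed to between 132 and 144 CPM with GFP and between 164 and 175 CPM with ORAI2. This sum covers 6 genes, as Sox10 was not matched in the deposited table. Of the 4 tested, 1 rose and 1 fell. The part of these differences in the adhesion genes was not tested.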

How the data were processed

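RNA of 3 GFP and 3 ORAI2 libraries was sequenced. Per the labels' protocols, mRNA was selected with oligo(dT) and reverse transcribed from random hexamers. The submitters' processing notes name Salmon 1.4.0, HISAT2 2.0.4 and mouse build GRCm39, but the sources used here give neither their roles nor the annotation or strand use. The deposited table holds whole-number counts per gene and, per the file headers, TPM (length-scaled shares of each library). Each of the 6 deposited TPM columns correlated better with another count library of its group than with its own, so TPM enters no test.

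Entrez numbers were matched to symbols through a RefSeq table of GRCm38.p6 (25631 of 26532, 96.6%). Counts were tested with edgeR 4.0.16 (R 4.3.3) by the quasi-likelihood test with TMM scaling and filterByExpr (minimum count 10), ORAI2 against GFP, without a block. Levels are CPM of the library total without TMM scaling, with the SD over 3 libraries. SE were derived from the F statistic. Lengths and overlaps come from GENCODE M21 (basic set), promoters from RefSeq. Replicates of a group differed by more than sampling noise (chi-square per gene at least 2.54 over genes with 20 or more counts). The steps were tested on simulated data. Alternatives were other scalings and filters, DESeq2 1.42.0, limma-voom 3.58.1, a replicate block and leaving out each library. The members and gene lists were chosen with earlier results of these data known. All 36 members are named. Values in every library, with fold change and adjusted p, were set for called members with at least 1 CPM and 1.2-fold. From other lists, up to 4 called genes per direction with at least 5 CPM were to be named; 1 of these is not reported here. Other genes named, and the ratios, were chosen after their values were seen.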

Additional observations from a re-analysis of the deposited data

Results flagged for a closer look

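TPM values enter no test, because each of the 6 columns correlated better with another count library of its group than with its own (across genes, in log2 deviations from the mean over the 6 libraries, 0.081 to 0.659 with its own). They held 3 members at a higher level in every ORAI2 column than in any GFP column, and 4 members, Itga1, Itgav, Itgb8 and Tln1, at a lower one. Itgb7 was at 62.8, 58.7 and 42.77 TPM with ORAI2, whereas the GFP columns gave 30.7, 26.9 and 17.8 TPM. Src was at 66.0, 66.1 and 65.34 TPM against 55.8, 52.2 and 44.2 TPM, and Hic1 at 0.41, 0.36 and 0.54 TPM against 0.25, 0.28 and 0.33 TPM. The column named ORAI2-3 listed Orai2 at 36.3 TPM, beside 1430 and 1241 TPM in the other 2 columns named ORAI2, so it goes against its label. In the columns numbered 1 and 2, all 22 members called from the counts had the same direction. By their names these columns come from the same libraries as the counts, so this is no independent check. Columns GFP-3 and ORAI2-3, left out of it, went against the counts for Bcar1 (93.7 and 90.2 TPM) and Lims1 (93.5 and 89.9 TPM). The same held for Ddr2 (78.1 and 103 TPM) and Ptk2b (22.4 and 23.6 TPM).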

How the results depend on the processing

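The counts of called genes stayed within 1.5 times their value under every alternative run. Between 4825 and 6246 of all genes were called, against 5909, and 4940 to 5655 with 1 library left out. Members called higher numbered 5 to 7 and members called lower 14 to 16 with 1 library left out, against 7 and 15. Of the 22 called members, 19 were called in the same direction under every alternative that tested them. The others were Hic1, Pxn and Tln1. Members that were not called and lay near 0 changed sign: Itga5 and Itga3 with upper-quartile scaling (log2 fold changes -0.0102 and -0.0136), and, with 1 library left out, Itga3 (-0.0257 to 0.0744) and Itgb1 (-0.0354 to 0.0136). The cause was not tested. No scaling moved the median of all genes by more than upper-quartile scaling did (-0.0205 on the log2 scale). Libraries with the same number correlated at 0.14, 0.07 and 0.13 in their deviations from the group means. Each library correlated best with its own number, which is a hint from the data and not from the design. The labels do not say that a number marks a shared culture, so the numbers were not taken to pair the libraries. With a replicate block 8 members were called higher and 15 lower, and 6246 of all genes. Itga11, Itga4, Itga8 and Itga9 were too scarce to test at this depth, and differences of Itgb3 and Hic1 rest on few counts.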
